A study of Mus musculus with 6 samples.

Results

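The 10 genes described here drive or restrain the step from G1 toward DNA replication. They are the D-type cyclins Ccnd1, Ccnd2 and Ccnd3, the E-type cyclins Ccne1 and Ccne2, the kinases Cdk4 and Cdk6, and the retinoblastoma family genes Rb1, Rbl1 and Rbl2. They were taken by name, through the Ensembl IDs of the deposited table, from 41128 genes in all. All 10 were found and all 10 passed the minimum for testing, a mean of 1 RPM (reads scaled to a common total per library) over the 6 libraries. The libraries hold polyadenylated RNA of marrow cells from C57BL mice, sorted by flow cytometry as long-term repopulating hematopoietic stem cells, that is, lineage-negative cells with Sca1 and c-Kit, without CD41 and CD48, and with CD150. The 3 control libraries are from animals given DMSO, the solvent. The 3 YH250 libraries are from animals given YH250, named in the series title as a p300/catenin antagonist, at 2 mg per kg under the skin. Marrow was collected 16 h after the dose in both groups. Age, sex and the number of animals behind a library are not stated in the labels used here, so the spread between libraries may be partly technical.

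In G1, D-type cyclins bind CDK4 or CDK6, and the active kinases phosphorylate the RB family proteins, which otherwise hold E2F transcription factors in check. Released E2F drives genes of DNA synthesis together with the E-type cyclins, which activate CDK2 and complete the step into S phase. Blood stem cells are mostly quiescent, and in this tissue the D cyclins and CDK6 are known for setting how readily a stem cell leaves quiescence. The comparison asks which transcripts YH250 alters in these cells, and the submitters anticipated a rise of genes for stem cell maintenance and expansion.

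Between 21.96 and 31.19 reads stood behind 1 RPM in a library. The libraries are numbered 1 to 3 in each group, and they differed by number in markers of the sort. All 12 stem cell markers of a list, against 2.96% of all genes, passed the test as lower in number 3 than in number 1. Their summed level was 1557 RPM in control 1 and 1288 RPM in YH250 1. It was 1251 and 1241 RPM for number 2 and 448 and 369 RPM for number 3. The sum for number 2 mixes genes that moved apart. From number 1 to number 2, Hlf rose from 347 and 256 to 465 and 375 RPM. Mecom fell from 116 and 92.1 to 63.5 and 56.4 RPM. The 5 sort markers did not all point one way. Slamf1, which encodes the required CD150, reached 35.5 and 31.5 RPM in the pair numbered 1, only 0.515 and 3.92 RPM in the pair numbered 2, and 4.69 and 1.54 RPM in the last. Transcripts of Cd48, which the sort was to leave out, had 10.2 and 13.1 RPM, 31.5 and 66.9 RPM, and 258 and 252 RPM for the same pairs. These 2 genes go against the sort label in numbers 2 and 3. By contrast Ly6a, the gene of the required Sca1, was higher in number 3 than in number 1 (241 and 319 RPM against 80.9 and 122 RPM, limma, adjusted p = 0.00152). Itga2b, the gene of the excluded CD41, was lower there (5.65 and 7.13 RPM against 43.7 and 37.4 RPM, limma, adjusted p = 0.00319), and Kit had a log2 difference of -0.66 that did not pass (adjusted p = 0.0554). Levels of the 10 genes are therefore given by number. YH250 2 stood apart in markers of stroma and endothelium, whose sum was 428 RPM there and 113 to 131 RPM in the other 5.

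None of the 10 genes passed the test between YH250 and control. With limma, 0 of 10 reached an adjusted p of 0.05 (Benjamini-Hochberg over 13597 genes; smallest adjusted p among the 10 of 0.999), where the background was 0% of all genes tested. At an unadjusted p under 0.05 limma gave 0 of the 10, against 1.70% of all genes. Same-numbered libraries deviated together, least so for number 2. With the replicate number as a block, 0 of 10 passed again (limma, smallest adjusted p = 0.672, background 0%). At an unadjusted p under 0.05 the blocked limma fit gave 0 of 10, against 7.44%. The control and YH250 libraries overlapped for all 10 genes, whereas 7.48% of all genes had groups that did not overlap. In mean 5 of the genes were higher and 5 lower in YH250. Only Cdk4 was higher at all 3 numbers (1 of 10, against 16.1% of all genes), and only Cdk6 was lower at all 3 (1 of 10, against 15.0%). The median log2 difference over the 10 was 0.04, and that over all tested genes was 0.02. Leaving out both libraries numbered 3 gave 0 of 10 as well (limma, smallest adjusted p = 0.939). In RNA of sorted cells in bulk, fewer cells of a type and less RNA per cell cannot be told apart.

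**Figure D1:**
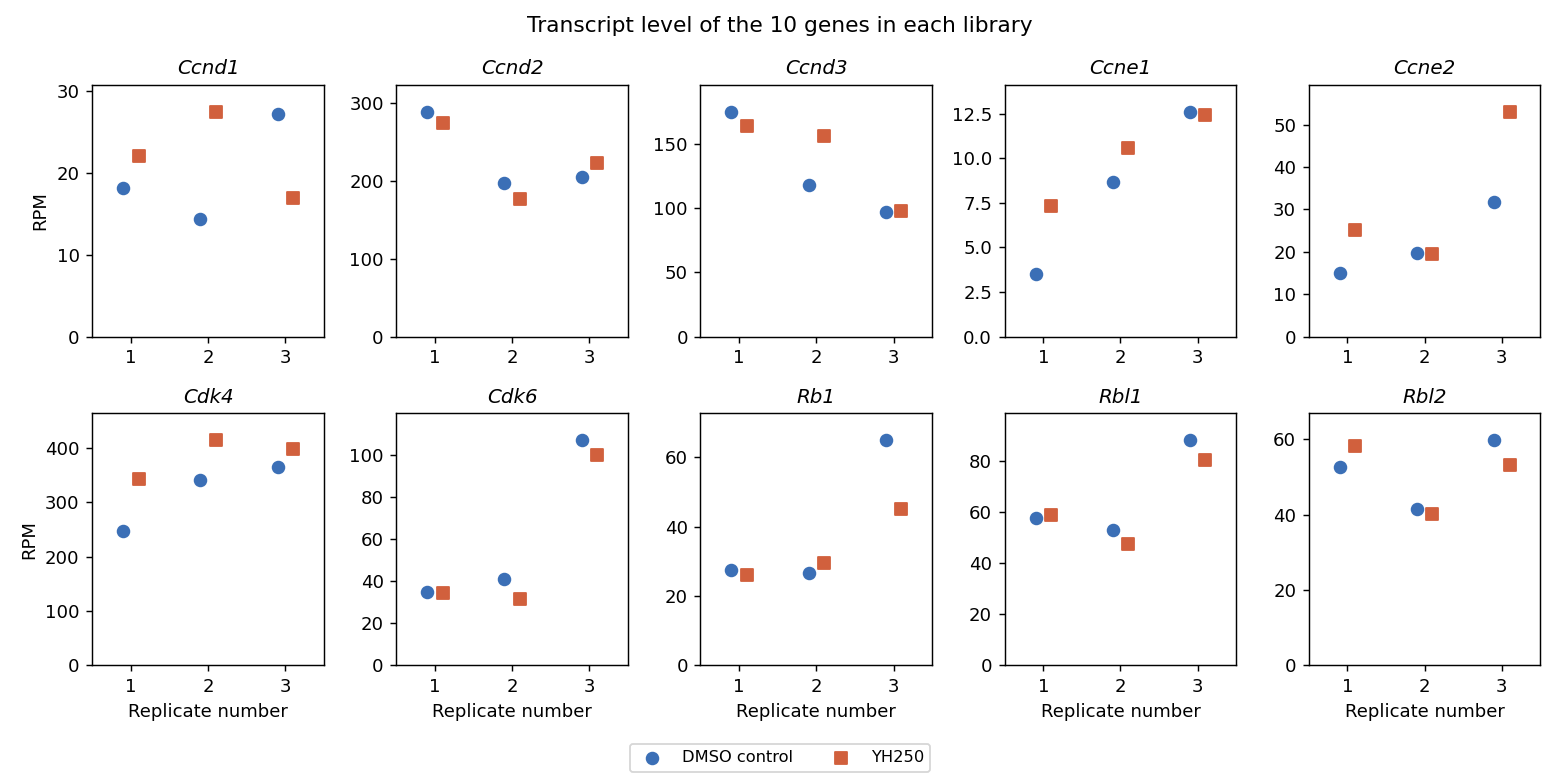
Level of each gene in RPM (y axis, from 0, a scale per panel) in the 6 libraries by replicate number (x axis), with DMSO controls as circles and YH250 as squares. The points of both groups overlap in every panel, and Cdk6 lies at 100 and 107 RPM in number 3 against 31.5 to 40.9 RPM elsewhere.

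**Figure D2:**
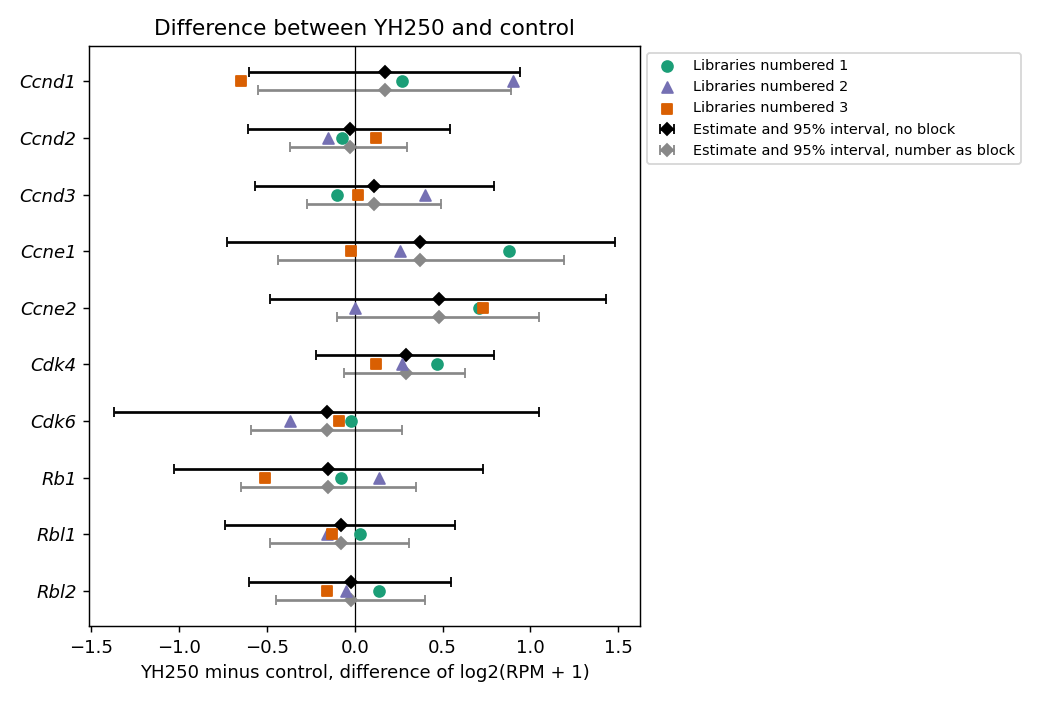
Difference between YH250 and control on the log2(RPM + 1) scale (x axis) for each gene, as estimates with 95% intervals without (black) and with (grey) the replicate number as a block, and as the 3 differences within a number. Every interval includes 0, and Cdk4 is above 0 and Cdk6 below 0 at each number.

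Among the D cyclins, Ccnd2 had the smallest difference in mean between treatments. D cyclins are the growth-factor-responsive partners of CDK4 and CDK6, and Ccnd2 and Ccnd3 are the D cyclins best known from blood cells. Ccnd2 (chromosome 6, 127125162 to 127152193, minus strand, GENCODE M21 on GRCm38) stood at 288, 197 and 204 RPM in the controls numbered 1, 2 and 3, and at 274, 177 and 223 RPM in the matching YH250 libraries. Both libraries numbered 1 were above the other 4. Its log2 difference between YH250 and control was -0.03. The 95% interval of the fold ran from 0.655 to 1.45, and with the block from 0.772 to 1.24. Ccnd3 (chromosome 17, 47505051 to 47599691, plus strand) was at 175, 118 and 96.8 RPM in the controls and at 164, 156 and 98.0 RPM with YH250. Its lowest values were those of both libraries numbered 3 and its highest those numbered 1, with number 2 split between 118 and 156 RPM. The log2 difference between treatments was 0.11 (95% interval of the fold 0.673 to 1.72, and with the block 0.829 to 1.40).

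Ccnd1 was the lowest D cyclin and the only one of the 3 without an order by number. It encodes cyclin D1, widely cited as a target of Wnt and catenin signalling. It was at 18.1, 14.3 and 27.2 RPM in the controls and at 22.0, 27.4 and 16.9 RPM with YH250. Its differences between YH250 and control were 0.27, 0.90 and -0.65 on the log2 scale at numbers 1, 2 and 3, so the sign depended on the number. The estimate was 0.17, with a 95% interval of the fold from 0.661 to 1.92, and with the block from 0.682 to 1.86. Without both libraries numbered 2 it was -0.19. The gene (chromosome 7, 144929931 to 144939925, minus strand) shares 1100 of its 4709 exonic bases with LTO1 on the other strand.

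Cdk4 and Cdk6 encode the 2 catalytic partners of the D cyclins, and Cdk4 was the most abundant of the 10 genes while Cdk6 differed most between numbers. Their promoters are shown as a description, and a link between their letters and these levels was not tested. Promoter entries of RefSeq (GRCm38.p6) matched 6 of the 10 genes: Ccnd3, Ccne1, Cdk4, Cdk6, Rbl1 and Rbl2. Ccnd3 had separate windows at chr17:47504801-47505050 and chr17:47593217-47593466. The 250 bases before the RefSeq start are printed 5′ to 3′, at chr10:127063285-127063534 for Cdk4 (plus strand) and chr5:3343643-3343892 for Cdk6 (plus strand). The Cdk6 window lies within the GENCODE span of the gene, which begins at 3341485. Capitals mark the letters CACGTG, the E-box bound by Myc and related factors, and in Cdk4 also ATCAAAG, the reverse complement of the TCF/LEF motif CTTTGAT.
Cdk4: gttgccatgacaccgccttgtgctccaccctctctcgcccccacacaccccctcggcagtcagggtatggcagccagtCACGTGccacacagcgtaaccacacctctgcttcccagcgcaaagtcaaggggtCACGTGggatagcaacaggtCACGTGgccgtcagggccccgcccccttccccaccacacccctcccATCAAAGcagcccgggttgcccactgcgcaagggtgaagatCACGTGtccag
Cdk6: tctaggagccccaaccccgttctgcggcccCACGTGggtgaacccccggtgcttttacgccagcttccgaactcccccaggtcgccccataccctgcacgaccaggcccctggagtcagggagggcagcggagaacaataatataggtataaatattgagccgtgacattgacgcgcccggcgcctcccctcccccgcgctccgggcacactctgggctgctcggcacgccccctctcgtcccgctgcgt
The Cdk4 window held 4 E-boxes, at 172, 118, 98 and 11 bases before the start counted from the first base of the motif, and the Cdk6 window held 1, at 220 bases. CACGTG reads alike on both strands and was counted once a site; 6.02% of 32851 RefSeq promoter windows of this length held at least 1 and 0.021% held 4 or more. This motif was added to the search after the Cdk4 window had been read, so the limit of 4 was set by what was seen there. CTTTGAA or CTTTGAT on either strand occurred in 7.48% of windows and, of the 6 genes, in Cdk4 alone. The matches are a description of these letters and not evidence of binding.

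Cdk4 (chromosome 10, 127063534 to 127067920, plus strand) was at 248, 342 and 366 RPM in the controls and at 343, 414 and 398 RPM with YH250. The lowest library was control 1, and the groups overlapped between 343 and 366 RPM. The log2 difference between YH250 and control was 0.29 ± 0.22 (SE, limma, adjusted p = 0.999), and with the block 0.29 ± 0.15 (adjusted p = 0.672). The differences at numbers 1, 2 and 3 were 0.47, 0.27 and 0.12, and the estimate was 0.12 without control 1. The 95% interval of the fold was 0.859 to 1.73, and with the block 0.961 to 1.55.

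Cdk6 (chromosome 5, 3341485 to 3531008, plus strand) stood at 34.7, 40.9 and 107 RPM in the controls numbered 1, 2 and 3, and at 34.3, 31.5 and 100 RPM with YH250. Both libraries numbered 3 lay apart from the other 4, in the control and in the YH250 group alike. The difference between treatments was -0.16 on the log2 scale, with -0.02, -0.37 and -0.09 at the 3 numbers. The 95% interval of the fold ran from 0.387 to 2.07, and with the block from 0.664 to 1.21. Between numbers 3 and 1 the level differed 2.94-fold (95% interval 2.04 to 4.24; log2 difference 1.56 ± 0.24 SE, limma with treatment as a term, adjusted p = 0.00399). Between numbers 3 and 2 it differed 2.83-fold (95% interval 1.96 to 4.08; limma, adjusted p = 0.00842). The second of these was no longer called without control 3 (limma, adjusted p = 0.0772) or without YH250 3 (adjusted p = 0.064), with log2 differences of 1.55 and 1.45. In hematopoiesis CDK6 is known as the kinase whose level separates deeply quiescent stem cells from those that enter division sooner.

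The ratio of Cdk4 to Cdk6 per kilobase of transcript, which no single scaling factor of a library can move, gave the same order. With the longest coding transcript as length it was 40.0 and 47.0 in control 1 and 2 and 56.2 and 73.8 in YH250 1 and 2, but 19.2 and 22.3 in control 3 and YH250 3. Cdk6 thus made up 4.95% and 4.28% of the length-scaled sum of both kinases in number 3 and 1.34% to 2.44% in the other 4 libraries. Cdk4 was the more abundant kinase in all 6 libraries, also with the union of exons as length, where the ratio ran from 14.7 to 56.6.

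The E cyclins activate CDK2 at the entry into S phase and are classic E2F targets. Ccne1 (chromosome 7, 38097984 to 38107534, minus strand) was the lowest of the 10 genes, at 3.53, 8.68 and 12.6 RPM in the controls and 7.31, 10.6 and 12.4 RPM with YH250. Its 3.53 RPM in control 1 rest on about 92 reads. It was lowest in number 1 and highest in number 3 in both groups. Ccne2 (chromosome 4, 11191351 to 11204779, plus strand) was at 15.0, 19.7 and 31.7 RPM in the controls and at 25.1, 19.6 and 53.0 RPM with YH250. YH250 3 was the highest library, and the groups did not separate at number 2. The log2 differences between treatments were 0.37 for Ccne1 and 0.48 for Ccne2, the largest of the 10 with all libraries. The 95% intervals of the fold were 0.602 to 2.79 and 0.716 to 2.70. With the block they were 0.735 to 2.28 and 0.936 to 2.07. Without YH250 3 the difference of Ccne2 was 0.07, and without control 1 that of Ccne1 was -0.07. Neither gene passed (limma, adjusted p = 0.999 for each, and 0.769 and 0.672 with the block).

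The RB family proteins RB1, p107 (Rbl1) and p130 (Rbl2) restrain E2F, and p130 is the member known for quiescent cells. Rb1 (chromosome 14, 73183673 to 73325822, minus strand) was at 27.6, 26.6 and 64.9 RPM in the controls and at 26.1, 29.4 and 45.2 RPM with YH250. Rbl1 (chromosome 2, 157145893 to 157204534, minus strand) was at 57.8, 53.0 and 88.2 RPM and at 59.1, 47.4 and 80.6 RPM. Both genes were higher in each library numbered 3 than in any other library. Rbl2 (chromosome 8, 91070057 to 91123844, plus strand) was at 52.6, 41.5 and 59.7 RPM in the controls and at 58.2, 40.1 and 53.3 RPM with YH250. It was lowest in both libraries numbered 2 and spanned only 1.49-fold from the lowest library to the highest, the narrowest range of the 10. The log2 differences between treatments were -0.15, -0.08 and -0.02 for Rb1, Rbl1 and Rbl2. The 95% intervals of the fold were 0.490 to 1.65, 0.597 to 1.49 and 0.659 to 1.47. With the block they were 0.635 to 1.28, 0.715 to 1.24 and 0.732 to 1.32.

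The Rbl1 promoter is shown because, of the 6 genes, it alone held an E2F motif, the binding letters of the factors that this family restrains. The 250 bases before the RefSeq start lie at chr2:157204535-157204784 on the minus strand (GRCm38.p6), and capitals mark the motif.
Rbl1: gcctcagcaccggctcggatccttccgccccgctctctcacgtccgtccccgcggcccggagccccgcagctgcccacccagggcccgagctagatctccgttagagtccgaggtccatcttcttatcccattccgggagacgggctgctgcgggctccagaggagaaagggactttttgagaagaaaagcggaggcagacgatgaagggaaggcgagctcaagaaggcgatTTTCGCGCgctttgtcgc
The search took TTTGGCGC, TTTGCCGC, TTTCGCGC and TTTCCCGC on both strands, and 1.86% of the 32851 windows held at least 1 of them. In Rbl1 the match begins 18 bases before the start. The windows of Ccne1, Ccnd3, Cdk4, Cdk6 and Rbl2 held none, which says only that these letters are not within them.

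Libraries of different number differed in Cdk6 and Ccnd3. Cdk6 was higher and Ccnd3 lower in number 3 than in number 1, each passing the test, and 8 of the 10 did not pass. That is 1 of 10 higher against 5.60% of all genes and 1 of 10 lower against 2.96%, single genes from which nothing is read about the 10 as a set. Ccnd3 differed 0.577-fold (95% interval 0.419 to 0.796; log2 difference -0.79 ± 0.21 SE, limma, adjusted p = 0.0456). This call was close to the threshold and was lost without control 1 (-0.64, adjusted p = 0.435), control 3 (-0.86, adjusted p = 0.132), YH250 1 (-0.95, adjusted p = 0.0772) or YH250 3 (-0.73, adjusted p = 0.145) in limma fits. Rb1, Ccne2, Ccne1 and Rbl1 had log2 differences of 0.99 ± 0.27, 1.04 ± 0.31, 1.13 ± 0.45 and 0.52 ± 0.22 (SE) and did not pass (limma, adjusted p = 0.0561, 0.0722, 0.155 and 0.178). Rb1, Ccne2 and Ccne1 passed without control 2 or without YH250 2, at unchanged log2 differences of 0.99, 1.04 and 1.13. The lone library numbered 2 is then fitted exactly, so both fits rest on the same libraries, those numbered 1 and 3. They are not separate support, and the spread within number 2 no longer enters them. With a minimum mean of 5 RPM and all libraries, Rb1 and Ccne2 passed as well (limma, adjusted p = 0.0351 and 0.0477). Cdk4 had 0.39, Ccnd2 -0.40, Ccnd1 0.10 and Rbl2 0.03; of these, Cdk4 turned to -0.05 after quantile normalization, Ccnd1 to -0.24 after rescaling, and Rbl2 to between -0.33 and -0.03 under the 3 other scalings.

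Between numbers 3 and 2 Cdk6 alone passed, 1 of 10 higher against 3.67% of all genes and 0 of 10 lower against 2.64%. The log2 differences of Ccne2, Rb1, Rbl1 and Ccnd3 were 1.02, 0.93, 0.74 and -0.47 (limma, adjusted p = 0.0813, 0.0736, 0.0734 and 0.191). Of these, Ccne2 and Rbl1 passed without control 2 (limma, adjusted p = 0.00467 and 0.0475), and Rb1 passed without YH250 2 (0.0226) or with a minimum mean of 5 RPM (0.0484). Between numbers 2 and 1 limma called 0 of 10, against 0.199% of all genes; at an unadjusted p under 0.05 it gave 1 of the 10, against 14.3%. At an unadjusted p under 0.05 limma gave 6 of 10 between numbers 3 and 1 (24.4% of all genes) and 5 of 10 between numbers 3 and 2 (25.3%). Both libraries numbered 3 lay above the other 4 for Ccne1, Ccne2, Cdk6, Rb1 and Rbl1, 5 of 10 against 19.9% of all genes, and below them for Ccnd3, 1 of 10 against 14.3%.

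The scaling of the libraries bears on these values. Genes took 70.0% and 77.9% of the scaling total in control 1 and YH250 1 but 95.9% and 93.6% in number 3. Rescaling the genes of each library to 1 common sum moved the median log2 difference of all genes between numbers 3 and 1 from 0.04 to -0.28, and that between numbers 3 and 2 from 0.08 to -0.14. With that scaling 465 genes were called higher and 891 lower in number 3 than in number 1, against 761 and 403 as deposited. Cdk6 was 1.21 and Ccnd3 -1.15 on the log2 scale after rescaling, both still called (limma, adjusted p = 0.017 and 0.009), whereas Rb1 was 0.64 and Ccne2 0.70, and neither passed. Ccnd2 was then called lower in number 3, at -0.75 (limma, adjusted p = 0.0348). After quantile normalization Ccnd2 was called as well, at -0.83 (limma, adjusted p = 0.0179), but not with median-of-ratios scaling, at -0.45 (adjusted p = 0.152).

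**Figure D3:**
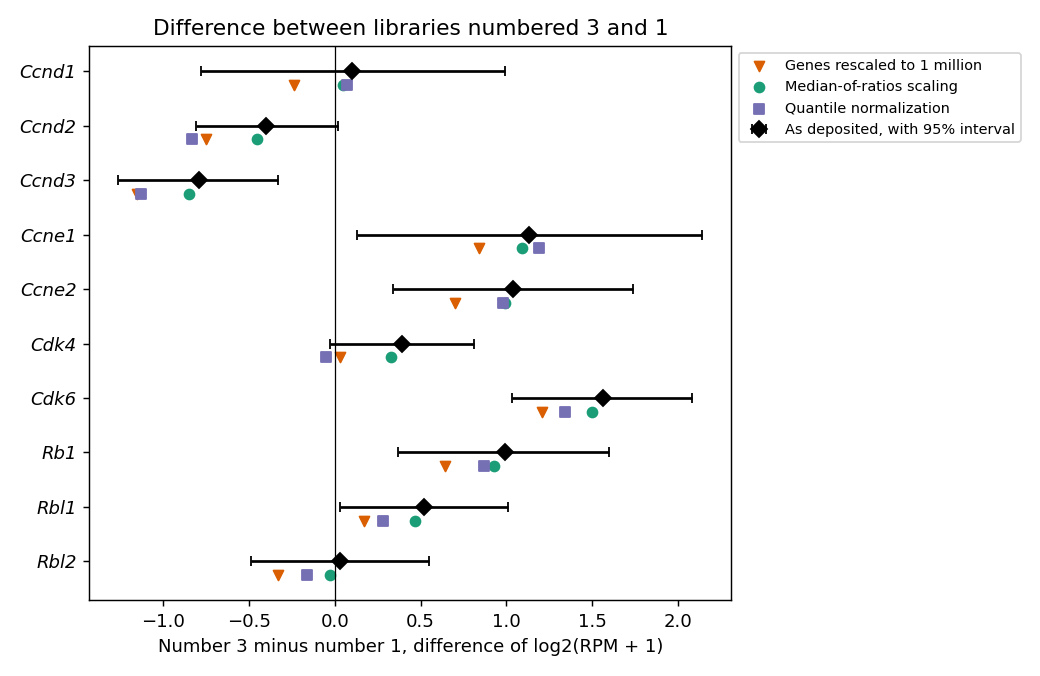
Difference between the libraries numbered 3 and 1 on the log2(RPM + 1) scale (x axis) for each gene, as the estimate with its 95% interval (black) and under 3 other scalings (coloured). Cdk6 stays between 1.21 and 1.56 and Ccnd3 between -1.15 and -0.79, while Cdk4, Ccnd1 and Rbl2 cross 0.

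Markers of other cells differed by number as well, and their part in the Cdk6 and Ccnd3 results was not tested. Over all genes, 5.60% passed as higher in number 3 than in number 1 and 2.96% as lower. Procr, a surface receptor of stem cells, had 47.3 and 36.4 RPM in number 1 against 11.5 and 5.96 RPM in number 3. Of the 8 markers of multipotent and lymphoid-primed progenitors 7 passed as higher in number 3, and they summed to 308 and 361 RPM for number 1, 1144 and 1228 RPM for number 2, and 2277 and 2156 RPM for number 3. Dntt, the lymphoid enzyme that adds bases at antigen receptor joints, had 5.76 and 10.2 RPM in number 1 against 633 and 614 RPM in number 3. The progenitor receptor gene Flt3 had 26.6 and 28.9 RPM in number 1 but 224 to 271 RPM elsewhere. In number 2, Dntt had 38.3 and 153 RPM and Cdk6 40.9 and 31.5 RPM.

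All 8 tested markers of B cells, of 9 in the list, passed as higher in number 3 than in number 1. They summed to 124 and 540 RPM for number 1, 430 and 3654 RPM for number 2, and 7098 and 16183 RPM for number 3. Most of it was Ighm, the immunoglobulin mu chain, at 6491 and 15344 RPM in number 3. Cd79a, a subunit of the B cell receptor, had 6.18 and 38.4 RPM in the first pair against 157 and 229 RPM in the pair numbered 3, while Pax5, the factor that fixes B cell identity, was at 0 to 0.273 RPM in all 6 libraries. Of 13 T and NK cell markers 5 passed as higher in number 3, with sums of 69.6 and 140 RPM against 522 and 490 RPM. Of 11 myeloid markers 2 passed, with sums of 349 and 486 RPM against 954 and 968 RPM. The share of all genes that passed as higher was 5.60%.

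Of the 3 tested markers of mast cells, basophils and eosinophils, in a list of 6, all 3 passed as higher, and the sums were 0.998 and 8.37 RPM for number 1 against 104 and 162 RPM for number 3. For the megakaryocyte list 2 of 6 markers passed as lower (sums of 105 and 127 RPM against 37.7 and 17.7 RPM), for the erythroid list 1 of 5 tested (sums between 8.38 and 140 RPM over all libraries), and for stroma and endothelium 1 of 9. The shares of all genes were 5.60% higher and 2.96% lower, and nothing is read about a cell type from so few genes. No marker of any of these lists passed between YH250 and control.

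**Figure D4:**
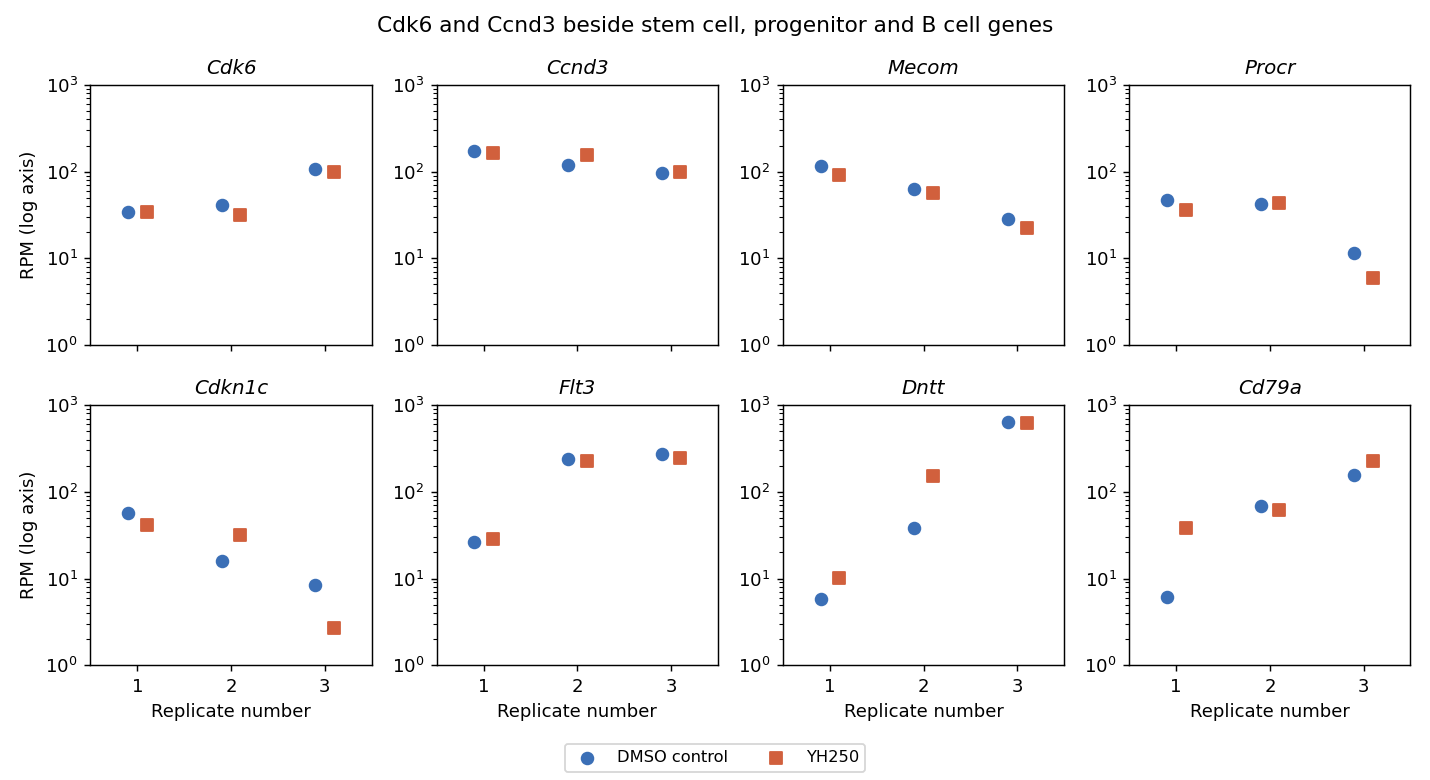
Level in RPM (log axis) by replicate number of Cdk6 and Ccnd3, the stem cell genes Mecom and Procr, the quiescence-linked inhibitor Cdkn1c, the progenitor genes Flt3 and Dntt and the B cell gene Cd79a, with DMSO controls as circles and YH250 as squares. Cdk6 is at 107 and 100 RPM in number 3. In number 2, Flt3 has 240 and 224 RPM and Dntt 38.3 and 153 RPM.

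Levels of different genes were set side by side per kilobase of transcript. Cdk4 was the most abundant of the 10 at 171 ± 28.5 RPM per kb (SD, n = 6 libraries, longest coding transcript), above every value of the other 9. Ccnd3 followed at 63.7 ± 16.4 and Ccnd2 at 35.9 ± 7.04 RPM per kb, with non-overlapping ranges of 45.8 to 82.9 and 27.9 to 45.5. That order rests on the length used: over the union of all annotated exons Ccnd2 was at 24.1 ± 4.74 and Ccnd3 at 15.3 ± 3.95 RPM per kb, since the annotated exons of Ccnd3 span 8775 bases and its longest coding transcript 2113. Then came Rbl1 at 13.2 ± 3.34, Rbl2 at 10.3 ± 1.69, Ccne2 at 9.09 ± 4.59 and Rb1 at 7.87 ± 3.36 RPM per kb, whose ranges overlapped. Ccnd1 (5.61 ± 1.47), Cdk6 (5.04 ± 3.07) and Ccne1 (4.59 ± 1.72 RPM per kb) were lowest and overlapped too.

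Within the D cyclins Ccnd1 made up 3.63% to 8.52% of the length-scaled sum in the 6 libraries, Ccnd2 25.6% to 40.9% and Ccnd3 53.7% to 67.6% (longest coding transcript, as for the shares that follow). With the union of exons the order of the last 2 was reversed, with Ccnd2 at 44.3% to 61.6% and Ccnd3 at 28.6% to 41.9%. The share of Ccnd3 was 59.1% ± 4.74 in the controls and 60.9% ± 6.89 with YH250 (SD, n = 3 each), a difference smaller than the spread between libraries. Rbl1 held 40.3% to 44.7% of the RB family sum in all libraries. The share of Rb1 was 31.5% in control 3 and 18.9% to 26.2% elsewhere, and that of Rbl2 was lowest in control 3 and YH250 3, at 27.4% and 29.2%, and 33.6% to 40.0% in the other 4. Ccne2 held the larger part of the E cyclin sum in every library, 55.1% to 74.0%.

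The other genes of the pathway were taken from lists written for this purpose, and 0 of their members passed between YH250 and control with or without the block. The lists nearest to the 10 genes were centred close to 0. CDK inhibitors, which bind and block these kinases, had a median log2 difference of -0.04 over 5 tested of 7, with 1 higher and 4 lower in mean. Cdkn1a (p21) was at 35.0 ± 6.02 RPM in the controls and 34.0 ± 5.33 RPM with YH250 (SD, n = 3 each, as for the values that follow), Cdkn1b (p27) at 23.0 ± 9.69 and 19.3 ± 7.62, Cdkn2c (p18) at 12.5 ± 5.50 and 12.8 ± 6.38, and Cdkn2d (p19) between 35.4 and 45.6 RPM and between 37.8 and 56.6 RPM. Cdkn1c (p57), the inhibitor best known from quiescent stem cells, was at 56.6, 15.9 and 8.47 RPM in the controls numbered 1, 2 and 3 and at 41.9, 31.4 and 2.71 RPM with YH250. It was the only inhibitor to pass between numbers 3 and 1, at -3.07 ± 0.49 on the log2 scale (limma, adjusted p = 0.00547). That is 1 of 5 tested, against 2.96% of all genes lower, and nothing is read about the list. Cdkn2a was listed at 0 in all 6 libraries and Cdkn2b reached at most 1.46 RPM, so neither was tested.

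E2F and DP factors had a median log2 difference of -0.06 between treatments over 10 genes, 5 higher and 5 lower in mean. E2f5, a repressor that pairs with p130, was at 13.2 ± 1.70 RPM in the controls and 6.28 ± 5.02 RPM with YH250, without passing (limma, adjusted p = 0.999). E2f2, an activating member, was at 16.2 and 13.9 RPM in number 3 against 2.00 and 2.98 RPM in number 1. Its log2 difference of 2.21 passed (limma, adjusted p = 0.0379). That is 1 of 10 higher, against 5.60% of all genes, and nothing is read about the list. Other cell cycle kinases and cyclins had a median of 0.02 over 13 tested genes. Cdk2, the kinase partner of the E cyclins, was at 66.6 ± 6.16 and 67.6 ± 13.6 RPM, and Ccna2, which takes over CDK2 in S phase, at 41.7 ± 30.7 and 58.1 ± 15.8 RPM. Subunits and partners of MuvB, the complex that represses cell cycle genes with p107 and p130, had a median of 0.13 over 7 genes, and genes of cyclin turnover 0.19 over 11.

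Lists of genes downstream of E2F had larger median differences than the 10 genes, though none of their members passed. All lists were chosen with earlier results of these data known. The genes of a list were also measured in the same libraries, so the counts that follow are a description and no test. Of 26 genes of the G1/S transition, 25 were higher in mean with YH250 and 18 at each of the 3 numbers (16.1% of all genes), with a median of 0.38 (all tested genes 0.02, of which 51.7% were higher in mean). Rrm2, a subunit of the enzyme that makes deoxynucleotides, was at 45.8 ± 42.6 and 86.4 ± 44.5 RPM, and the helicase subunit Mcm5 and thymidine kinase Tk1 were at 70.9 ± 11.9 and 106 ± 5.71 RPM and at 40.6 ± 13.9 and 68.6 ± 15.8 RPM. Of 20 mitotic genes 16 had a higher mean and 10 were higher at each number, with a median of 0.31. At an unadjusted p under 0.05 limma gave 2 of 26 G1/S and 3 of 20 mitotic genes, against 1.70% of all genes. With the block it gave 10 of 26 and 6 of 20, against 7.44%. Over 17 alternatives the median ran from 0.25 to 0.63 for the G1/S list and from 0.01 to 0.72 for the mitotic list. Mki67, a general mark of cycling cells, was at 175 ± 88.4 and 179 ± 120 RPM. On the log2 scale it was among the 4 mitotic genes lower in mean, at -0.09. Aurka and Cdc20 had the smallest unadjusted p of the mitotic list and did not pass (limma, adjusted p = 0.999 for each). Aurka was at 15.2 ± 6.45 and 29.8 ± 8.09 RPM, and Cdc20 at 23.0 ± 5.03 and 37.0 ± 2.98 RPM. Between numbers 3 and 1, 20 of 20 mitotic genes were higher and 7 passed, Mki67 among them (0.81 ± 0.21, limma, adjusted p = 0.0482), and of the G1/S genes 23 of 26 were higher, 2 passed as higher and 1 as lower. Over all genes tested in that contrast, 5.60% passed as higher and 2.96% as lower, so the counts of G1/S genes that passed are near the background. This does not cover the counts of genes higher in mean, for which no share over all genes was taken. The list medians were 0.49 for G1/S and 0.81 for mitotic genes, against 0.04 for all tested genes.

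**Figure D5:**
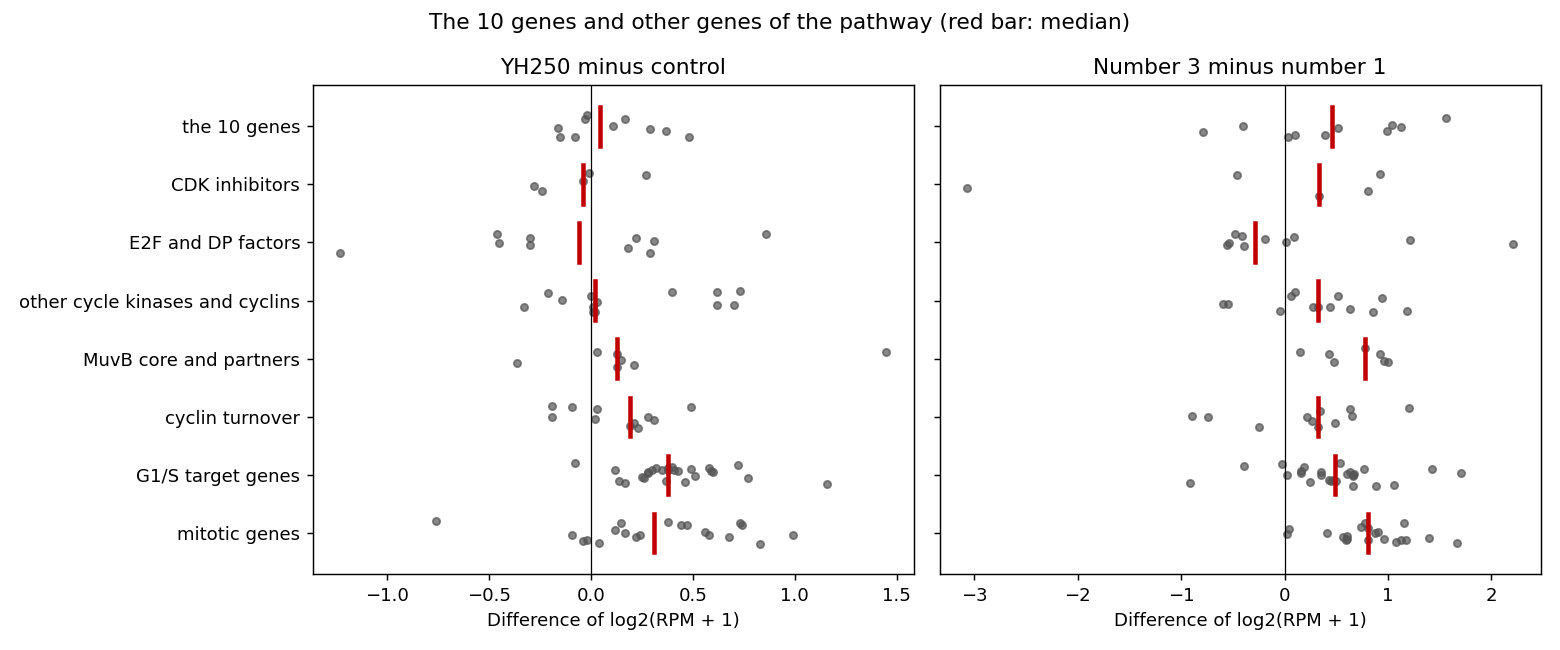
Log2 differences of the 10 genes and of each tested gene of 7 pathway lists between YH250 and control (left) and between numbers 3 and 1 (right), with the median as a red bar. On the left the medians run from -0.06 for E2F and DP factors to 0.38 for G1/S target genes, and on the right from -0.29 to 0.81.

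By the likeness of pattern over the 6 libraries, the genes closest to Cdk6 were Igkv2-137, Prex1 and Fuca2, with Pearson r of 0.997, 0.996 and 0.996 on the log2(RPM + 1) scale. Igkv2-137 is an immunoglobulin kappa variable segment, a family whose near-identical copies make its own reads uncertain, and it ran from 0.480 to 218 RPM. The genes closest to Ccnd3 were Sestd1, Scarf1 and H2-Q7 (0.996, 0.994 and 0.991), and those closest to Rbl1 were Calr, Ezr and Macf1 (0.998, 0.997 and 0.994). For Rb1 the closest was Igkv14-111 (0.993), for Cdk4 Esco1 (0.990), for Ccne1 Rbm6 (0.997), for Ccne2 Spcs3 (0.981), for Ccnd1 Wdfy4 (0.995), for Ccnd2 Coa7 (0.990) and for Rbl2 Zfp65 (0.996). Of 8529 genes compared, 436 reached an r of 0.9 with Cdk6 and 50 with Ccnd1. Among the 10 genes, Cdk6 and Rbl1 (0.95), Ccne1 and Cdk4 (0.94) and Cdk6 and Rb1 (0.93) were most alike, and Ccnd3 and Cdk6 (-0.91) most opposed. The 6 points share the 3 numbers, so high values are common and carry no test.

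Exons of 8 of the 10 genes overlap those of a gene on the other strand, and whether counting used strand is not stated. The shared stretch was 641 of 3249 exonic bases for Cdk4 (with Tspan31), 609 of 3495 for Ccne2 (with Ints8), 361 of 8775 for Ccnd3 (with Bysl) and 368 of 13989 for Cdk6 (with the antisense gene Gm17590). Ccne1 and Rbl1 shared none.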

How the data were processed

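Per the labels' protocols, cDNA from ultra-low RNA input was sonicated and sequenced as 50-base single-end reads. Tools named in the submitters' processing notes, with no roles, are Partek, TopHat2 2.0.8 and CASAVA 1.8.2, and the build is mm10. The annotation behind the counts is not stated there. The authors deposited 1 normalized signal per gene and library. Every column has a minimum of exactly 1, and the excess moves in steps of 1 size per library, so the signal was read as RPM plus 1. Only 61.0% to 68.5% of values up to 20 reads came within 0.1 of a whole number, so no count model was used.

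Symbols matched 40254 of 41128 genes. With the offset subtracted, the 13597 genes whose mean reached 1 RPM were fitted as log2(RPM + 1) with limma 3.58.1 in R 4.3.3 (lmFit, eBayes with trend and robust options). Each group had 3 libraries, and p-values were adjusted by Benjamini-Hochberg at 0.05. A fold on this scale understates changes of low genes. Contrasts between numbers had treatment as a term and 2 libraries per number. The code was tested on simulated data. Same-numbered libraries correlated in their deviations from the group mean at 0.551, 0.256 and 0.696 (numbers 1, 2 and 3), all above 0.1, so a blocked fit is given too. The limit does not single out the numbering, since control 2 with YH250 1 (0.144) and control 1 with YH250 2 (0.109) also exceeded it. The other pairs of unlike number were negative. What a number marks is not in the labels, nor that libraries came from separate animals, so p-values measure the spread between these libraries only.

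The 10 genes and all lists were chosen with earlier results of these data known. Named beside the 10 genes were the CDK inhibitors, Cdk2, Ccna2, Mki67, leading genes of each list by unadjusted p (those of interest are given), and for likeness the 3 named genes of at least 10 RPM with the highest r. Exon lengths and positions are from GENCODE M21 (GRCm38).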

Additional observations from a re-analysis of the deposited data

How the results depend on the processing

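Between YH250 and control, limma passed 0 genes under each of 17 alternatives. With the replicate block it passed 0 genes, with 1012 at an unadjusted p under 0.05 against 231 without the block, and the block changed no call on the 10 genes. Counts between numbers moved more. Numbers 2 and 1 differed in 27 genes, in 0 with no minimum mean, 75 with a minimum of 5 RPM, 46 after quantile normalization, and 43 to 1743 when 1 library was left out. Numbers 3 and 1 differed in 1164 genes, in 180 with no minimum, and 414 to 2944 with 1 library left out. Numbers 3 and 2 differed in 858, 42 and 252 to 3122 genes under the same settings. With no minimum, Cdk6 was no longer called in either contrast (limma, adjusted p = 0.0597 against number 1 and 0.105 against number 2), nor was Ccnd3 (0.179).

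None of the 10 treatment differences was called. The sign changed under at least 1 alternative for 8 of the genes, and for Cdk4 (0.12 to 0.40) and Ccne2 (0.07 to 0.76) it was the same under all 17. Without both libraries numbered 2, Ccnd1 was -0.19, Ccnd2 0.03 and Ccnd3 -0.04 on the log2 scale, and without both numbered 3, Rb1 was 0.03 and Rbl2 0.05. With 1 library left out, the difference ran from -0.03 to 0.41 for Ccnd1, -0.19 to 0.14 for Ccnd2, -0.08 to 0.34 for Ccnd3, -0.07 to 0.72 for Ccne1, -0.69 to 0.33 for Cdk6, -0.38 to 0.26 for Rb1, -0.28 to 0.14 for Rbl1 and -0.16 to 0.13 for Rbl2. Between numbers 3 and 1, Ccnd1 was -0.24 after rescaling and -0.51 to 0.72 with 1 library left out, and Cdk4 was -0.05 after quantile normalization. Rbl2 was -0.33 after rescaling, -0.03 with median-of-ratios scaling, -0.16 after quantile normalization, and -0.10 to 0.15 with 1 library left out. The cause was not tested. A contrast with 1 library left out leaves 1 number with a lone library, assumed to vary like the others.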
